A study of Caenorhabditis elegans with 2 samples.

Results

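The regions described here are the autosomal promoter regions with the strongest signal in a chromatin immunoprecipitation and sequencing (ChIP-seq) experiment on the transcription factor ELT-3 in the nematode Caenorhabditis elegans. They were chosen from the authors' pooled region list by its deposited signal value. The 2000 regions with the highest pooled signal were kept, chromosome X was left out, and a region was retained when its summit fell in a promoter, meaning no more than 1000 bp before or 200 bp after the start of any protein-coding gene. This left 492 regions, which are 24.6% of the 2000 strongest and 1.64% of the 30000 regions in the pooled list. The choice used signal and position, so values of both are given below as a description and were not tested.

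The single group consisted of L1 larvae of mixed sex, collected as whole animals from strain OP75 (unc-119(ed3) III; wgIs75) and sequenced as 2 biological replicates. This line stably expresses ELT-3 fused at its C terminus to a GFP-FLAG tag, and the same unc-119 allele and transgene were present in all animals. The antibody field of the labels names elt-3, the chromatin was sonicated, and a control experiment named in the labels was not analysed here. No other genotype, stage or treatment was included, both replicates came from the same strain, and binding in whole larvae cannot be assigned to a tissue.

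ELT-3 belongs to the GATA family of zinc finger factors and is made in the epidermis, the tissue that secretes the nematode cuticle. GATA factors bind DNA through zinc fingers that recognise the word WGATAR, in which W is A or T and R is A or G, on either strand. In C. elegans, ELT-3 acts downstream of other GATA factors in epidermal cells and takes part in the expression of cuticle, osmotic response and stress genes.

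The sequences around the summits of the strongest regions are shown first because they differ in kind from a GATA site. The window reached 50 bp to each side of the summit, 101 bp in all, and is written 5′ to 3′ on the strand of the nearest gene. None of the following 8 windows, which belong to the 8 strongest regions of the set, contained WGATAR. Capitals mark words of 8 bases, other than those containing GATA, that were more frequent in the 492 regions than in weaker promoter regions, as described below.

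rpl-3: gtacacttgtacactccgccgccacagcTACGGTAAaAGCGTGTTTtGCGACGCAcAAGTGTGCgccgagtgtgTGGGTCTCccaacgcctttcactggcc

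iff-2: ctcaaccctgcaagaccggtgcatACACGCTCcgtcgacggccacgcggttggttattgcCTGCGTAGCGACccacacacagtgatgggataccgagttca

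rpl-15: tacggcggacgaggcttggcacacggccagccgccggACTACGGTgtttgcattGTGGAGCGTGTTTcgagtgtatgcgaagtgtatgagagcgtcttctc

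cdc-48.1: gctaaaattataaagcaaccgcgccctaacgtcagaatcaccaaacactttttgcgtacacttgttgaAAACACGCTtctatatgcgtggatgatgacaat

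rpl-35: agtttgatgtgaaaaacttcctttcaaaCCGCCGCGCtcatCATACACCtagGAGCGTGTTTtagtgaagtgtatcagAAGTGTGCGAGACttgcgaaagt

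ska-3: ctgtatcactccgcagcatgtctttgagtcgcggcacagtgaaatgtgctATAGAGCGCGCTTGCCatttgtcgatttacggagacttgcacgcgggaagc

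tasp-1: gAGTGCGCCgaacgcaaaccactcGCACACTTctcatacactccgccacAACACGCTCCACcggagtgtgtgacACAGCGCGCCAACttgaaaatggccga

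vig-1: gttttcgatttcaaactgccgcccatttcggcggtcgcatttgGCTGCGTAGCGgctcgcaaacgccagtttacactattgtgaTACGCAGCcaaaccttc

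These sequences were taken from the RefSeq genome of assembly WBcel235, which is the ce11 build of the files. The windows lay for rpl-3 at chrIII:3867539-3867639 (plus strand), iff-2 at chrII:8561385-8561485 (minus strand), rpl-15 at chrIV:654885-654985 (minus strand), cdc-48.1 at chrII:10563521-10563621 (minus strand), rpl-35 at chrIII:7854619-7854719 (plus strand), ska-3 at chrIII:5679070-5679170 (minus strand), tasp-1 at chrIII:10759197-10759297 (plus strand) and vig-1 at chrII:1320571-1320671 (plus strand). The genes rpl-3, rpl-15 and rpl-35 encode proteins of the large ribosomal subunit. The gene iff-2 encodes a homologue of translation factor eIF5A, and cdc-48.1 an AAA ATPase that extracts ubiquitinated proteins. The summit near ska-3 also lay in the promoter of rps-12, which encodes a protein of the small subunit.

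A second group of windows is shown for contrast, since these contained the word that the factor is known to recognise. Capitals here mark WGATAR or its reverse complement, and other words are left unmarked. The windows of H10E21.1 and C52E2.3 also contain ACGCAG, a leading word of 6 bases described below. The windows of rpl-15 and cdc-48.1 above contain none of the 5 leading words of that length, so the groups are not cleanly split. The first 6 belong to strong regions with a site, in order of pooled signal, and the last 2 are among the regions with most sites. This order is not complete, since the regions at C01B10.11 (62.97) and ZK6.8 (62.01), with 1 site each, are not shown.

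gana-1: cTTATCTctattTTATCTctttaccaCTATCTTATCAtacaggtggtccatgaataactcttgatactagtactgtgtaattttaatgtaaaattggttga

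F16G10.14: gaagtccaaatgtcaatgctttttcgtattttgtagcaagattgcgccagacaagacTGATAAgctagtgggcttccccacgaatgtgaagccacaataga

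dmd-7: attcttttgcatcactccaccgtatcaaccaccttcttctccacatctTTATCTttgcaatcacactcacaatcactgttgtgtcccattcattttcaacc

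oatr-1: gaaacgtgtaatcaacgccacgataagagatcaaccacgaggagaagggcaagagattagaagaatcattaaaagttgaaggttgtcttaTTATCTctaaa

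mfn-1: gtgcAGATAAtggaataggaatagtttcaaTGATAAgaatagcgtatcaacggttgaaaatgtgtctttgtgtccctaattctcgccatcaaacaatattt

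H10E21.1: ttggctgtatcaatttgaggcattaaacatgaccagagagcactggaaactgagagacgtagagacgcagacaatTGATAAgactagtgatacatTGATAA

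R10D12.1: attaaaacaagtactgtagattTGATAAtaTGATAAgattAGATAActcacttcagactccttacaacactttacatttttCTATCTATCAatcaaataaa

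C52E2.3: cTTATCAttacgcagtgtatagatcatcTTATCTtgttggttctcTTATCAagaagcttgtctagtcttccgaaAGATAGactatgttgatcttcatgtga

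The windows, again from RefSeq in WBcel235, lay for gana-1 at chrV:12086388-12086488 (plus strand), F16G10.14 at chrII:2399914-2400014 (minus strand), dmd-7 at chrV:6246454-6246554 (plus strand), oatr-1 at chrIII:6396621-6396721 (minus strand), mfn-1 at chrII:11472776-11472876 (minus strand), H10E21.1 at chrIII:15386-15486 (plus strand), R10D12.1 at chrV:13935583-13935683 (minus strand) and C52E2.3 at chrII:1850994-1851094 (plus strand). The window at gana-1, a gene for an alpha-galactosidase and alpha-N-acetylgalactosaminidase, held 4 sites, all in its first part. The window at R10D12.1 held 5 sites, more than any other region of the set, although its pooled signal of 26.4 was near the lower limit. The gene dmd-7 encodes a DM domain protein, oatr-1 ornithine aminotransferase, and mfn-1 a mitochondrial iron carrier.

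The deposited signal has no stated scale, and it is used here to order and describe regions within a list. Values of the replicates are also set side by side below, although their scales may differ. Pooled signal in the 492 regions went from 25.8 to 173.5 with a median of 30.5 and quartiles of 27.8 and 37.8. Values fell away steeply, with 54 regions above 50 and 6 above 100. The median was close to that of strong autosomal intronic regions (30.02), strong autosomal distal intergenic regions (29.9) and strong promoter regions of X (30.1). The weaker autosomal promoter regions, which are the other 5387 autosomal regions of the pooled list with a summit in a promoter, had a median of 16.7. The authors' optimal set of 253 peaks included 83 of the 492 regions (16.9%). It included 11.5% of the strong intronic, 14.8% of the strong distal and 17.4% of the strong X promoter regions.

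The 5 regions of highest pooled signal were also at or near the top of each replicate. The rpl-3 region had a signal of 84.4 in replicate 1 and 91.4 in replicate 2. The iff-2 region had 85.2 and 80.4, and the rpl-15 region 68.0 and 82.3. These regions were in the first 5 places of replicate 1 and the first 7 of replicate 2, as were those of cdc-48.1, with 86.8 and 75.01, and rpl-35, with 79.0 and 67.6. The next region, shared by ska-3 and rps-12, was less even, with 39.7 in replicate 1 and 65.7 in replicate 2. In replicate 2 it thus lay next to rpl-35, and these 5 stood apart from the other members in replicate 1 but not in replicate 2.

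The remaining regions among the first 20 had pooled signals between 64.1 and 87.1. The regions at tasp-1, a threonine aspartase gene, and vig-1, which encodes a component of the RNA-induced silencing complex, had pooled signals of 87.1 and 80.6. The region between rps-1 and ifet-1 had 79.4, that between H12C20.7 and nhr-68 had 75.7, and that at icd-2, which encodes a subunit of the nascent polypeptide-associated complex, had 75.005. The regions at gana-1 (72.3) and F16G10.14 (72.2) came next. Ribosomal protein promoters recurred further down this order, at rps-19 with hsr-9 (70.3), rpl-12 with lin-54 (67.7), rpl-20 with Y17G9B.5 (66.8) and rps-20 with ekl-4 (65.2). The region at dmd-7 (67.1), that at the ubiquitin ligase gene wwp-1 (64.6) and the region shared by Y71H2AM.20 and nduc-2 (64.1) completed the 20.

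At the limit of the choice, the last regions inside had signals of 25.86 at gstk-2, 25.85 at lgc-35 and 25.84 at swsn-7. The first promoter regions outside it had 25.82 at F26H9.5 and Y105C5A.8 and 25.78 at eef-1B.2, a translation elongation factor gene. The regions to each side of the limit are thus nearly alike in signal.

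Most of the regions were listed in both replicates, but their places in the order agreed poorly. A summit within 100 bp was listed for 455 of the 492 regions in replicate 1 (92.5%) and for 437 in replicate 2 (88.8%), and 401 (81.5%) had one in both. The list of replicate 1 held 30000 regions and that of replicate 2 held 15646, so a match was easier to obtain in the first. Both lists include background and the regions were chosen on signal pooled from both replicates, so a match was likely in advance. Among the 2000 strongest regions of a replicate were 242 members in replicate 1 (49.2%) and 282 in replicate 2 (57.3%). A place among the strongest in both was held by 120 (24.4%), and 88 (17.9%) had it in neither. The share with a place in both was similar in strong intronic (22.3%), strong distal (24.1%) and strong X promoter regions (28.8%).

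Signals of the 401 regions seen in both replicates were a median of 1.39-fold apart, and 42 (10.5%) differed 2-fold or more. Replicate 1 was higher in 201 of them, so neither replicate was higher throughout, although the signal may be scaled differently in each list. Regions not listed in both replicates are left out of these values, so the largest differences may be missing. Across the 401 regions Spearman's rho was 0.136 and Pearson's r of log2 signal was 0.384. These describe regions of 2 libraries that were selected on the pooled signal, which is made from both, so they do not measure the agreement of the lists as a whole.

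**Figure D1:**
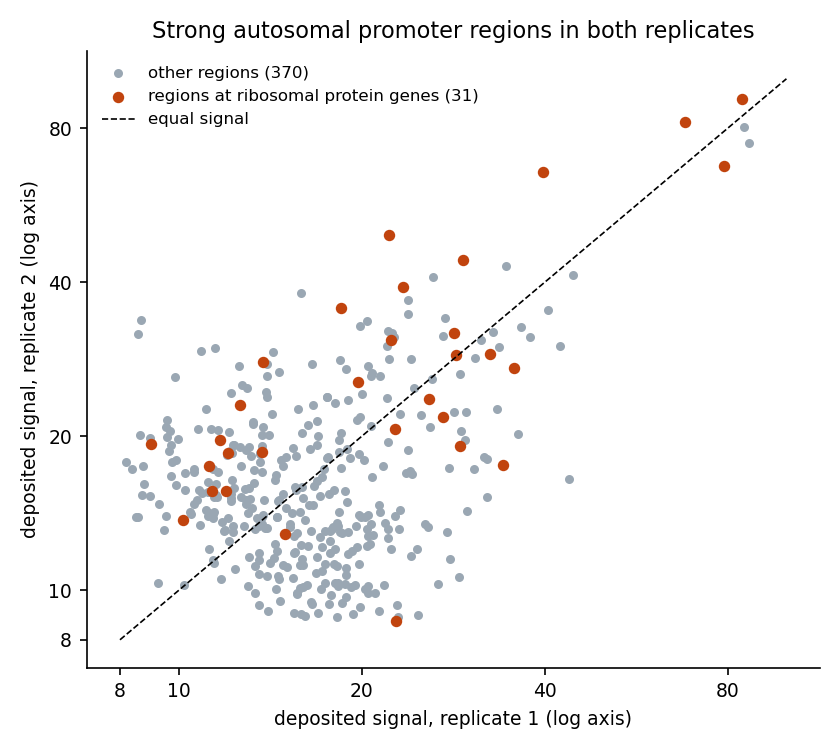
Deposited signal of the 401 regions listed in both replicates, with replicate 1 on the horizontal and replicate 2 on the vertical log axis and the 31 regions at ribosomal protein genes in red. The 5 strongest regions lie at the upper right close to the line of equal signal and apart from the others on the axis of replicate 1, while most others form a cloud in which 42 regions are 2-fold or more apart.

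By place within each list, the regions most in favour of replicate 1 were those at rpl-6, W08E12.9, scpl-3, pkc-3, an atypical protein kinase C gene, and R13A1.10. At rpl-6 the signal was 22.8 in replicate 1 and 8.72 in replicate 2. At pkc-3 it was 18.2 and 8.87. The regions most in favour of replicate 2 were those at Y22D7AL.6, frg-1 with the ubiquitin gene ubq-2, zyg-11, C17H12.2 with vha-8, and mrck-1. At mrck-1, a kinase gene, the signal was 8.67 in replicate 1 and 33.8 in replicate 2, and at zyg-11 it was 8.57 and 31.8. These regions were strong in 1 library and in the lower part of the list of the other. The lists differ in length, so places in them are not on the same footing.

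Summits were mostly in intergenic DNA upstream of the gene. The summit was intergenic in 359 regions (73.0%, 95% exact interval 68.8 to 76.8%), against 52.5% of the weaker promoter regions. It lay in a coding exon in 53 regions (10.8%, interval 8.17 to 13.9%), against 26.8% of the weaker ones. Introns held 38 summits and untranslated regions 42. The median position was -236 bp relative to the nearest 5′ end, with quartiles at -506.5 and -90.25 bp, whereas the weaker regions had a median of -317 bp. Summits downstream of the 5′ end made up 11.99% of the set and 20.3% of the weaker regions.

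**Figure D2:**
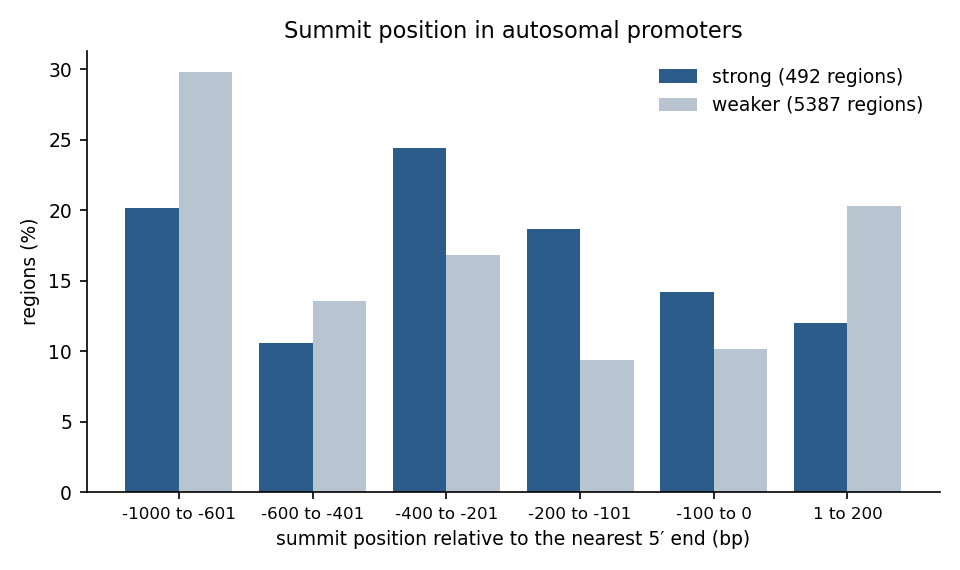
Share of regions (%) by summit position relative to the nearest 5′ end, in bp, for the 492 strong regions in dark blue and the 5387 weaker autosomal promoter regions in grey. The strong regions are concentrated between -400 and 0 bp, and 24.4% of them lie from -400 to -201 bp against 16.9% of the weaker ones.

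Many summits lay in the promoters of genes on opposite strands, called divergent here, although such a summit need not lie between their 5′ ends. The promoters of divergent genes overlapped at 122 of the 492 summits (24.8%, interval 21.0 to 28.9%), against 11.1% of the weaker regions (interval 10.2 to 11.9%). A summit was in more than 1 promoter for 128 regions, and in 3 promoters for 11. The data do not show which of 2 such genes a region belongs to, so the counts of genes below include each gene whose promoter held a summit.

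The regions fell in the promoters of 622 of the 17242 autosomal protein-coding genes, which is 3.61% of them. This share is the background against which the gene groups below are described, and because the genes follow from the choice of regions no group was tested. Ribosomal protein genes were the group most often represented among the 30 gene lists examined, which were chosen with earlier results of these data known. A strong region was found at 23 of 48 genes for the large subunit (47.9%, interval 33.3 to 62.8%) and 12 of 31 for the small subunit (38.7%, interval 21.9 to 57.8%). Counted by the nearest 5′ end alone, the numbers were 13 and 5, since at the others the 5′ end of another gene was nearer.

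Regions at ribosomal protein genes are described apart here, without a test. The choice used pooled signal, which is made from both replicates, so their signals and places are no independent evidence. There were 32 such regions, and they took 15 of the first 50 places in the order of pooled signal. Their median pooled signal was 45.5, against 30.1 for the other members. In the large subunit the strongest after rpl-3, rpl-15 and rpl-35 were rpl-12 (67.7), rpl-20 (66.8) and rpl-4 (58.4), and the weakest was rpl-28 at 25.9. In the small subunit, signals went from 108.7 at rps-12 and 79.4 at rps-1 down to 36.9 at rps-14 and 28.4 at rps-3. A place among the 2000 strongest of both replicates was held by 59.4% of the 32 regions (interval 40.6 to 76.3%). Of the 31 listed in both replicates, 10 were higher in replicate 1, and the median log2 ratio of replicate 1 to replicate 2 was -0.39. Their summits lay at a median of -297 bp.

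Other genes of protein synthesis were represented less densely. Of 38 translation factor genes 7 had a region (18.4%), led by iff-2 (167.5), eef-1A.1 (63.2), which shares its region with the replication factor gene rfc-4, eef-2 (52.6) and eif-3.C (48.7). The mitochondrial ribosome had 8 of 70 genes (11.4%), with signals from 25.9 at mrpl-49 to 32.2 at mrpl-1 and mrps-24. None of 32 aminoacyl-tRNA synthetase genes had one. Chaperones had 6 of 55 genes, with the Hsp70 gene hsp-1 at 46.7 and the chaperonin gene cct-1 at 39.5. Splicing factors and RNA helicases had 6 of 51, the proteasome 3 of 33, nuclear pore and transport genes 3 of 35, and the respiratory chain and ATP synthase 3 of 40. For the vacuolar ATPase the number was 2 of 18, for cdc-48 and its cofactors 1 of 14, and for actin, tubulin and myosin genes 1 of 25, the alpha-tubulin gene tba-2 (59.2). Histone genes had 4 of 76, including his-37 (60.9) and the H2A.Z gene htz-1 (57.7).

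Genes of the epidermis, where ELT-3 is known to act, were also present. Cuticle collagens had 12 of 144 genes (8.33%, interval 4.38 to 14.1%). The strongest were col-62 (52.6), col-103 (45.5), dpy-10 (41.9), col-61 (34.3), col-2 (33.97) and col-80 (33.3). The summit at col-62 was nearer to the 5′ end of C15A11.7, and that at col-2 nearer to ndc-80. The col-62 region was listed in replicate 2 at 41.8 and was not matched in replicate 1, and dpy-10 had 12.6 in replicate 1 and 27.4 in replicate 2. Epidermal antimicrobial peptides had 5 of 21 genes (23.8%, interval 8.22 to 47.2%) in 4 regions, led by a region shared by nlp-31 and nlp-34 at 54.2, which had 22.4 in replicate 1 and 31.9 in replicate 2. The others were nlp-24 (33.4), cnc-10 (30.3) and nlp-33 (26.4).

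Among 15 epidermal regulators only the zinc finger gene blmp-1 had a region, with a pooled signal of 27.8 and a summit at -150 bp. Among 11 osmotic response genes only gpdh-1, which encodes a glycerol-3-phosphate dehydrogenase induced by high salt, had one. It had a pooled signal of 37.3, 19.9 in replicate 1 and 13.9 in replicate 2, with a summit at -94 bp and 2 GATA sites. Hedgehog-related and patched-related genes had 3 of 73, namely grl-11 (37.2), ptr-14 (36.3) and wrt-10 (30.7). The summits at grl-11 and wrt-10 were nearer to the 5′ ends of ced-11 and ZK1290.13. No autosomal gene among 76 cuticlins and molting genes, 13 genes of epidermal junctions and attachment, and 8 GATA factors had a region in the set. A count of 0 here refers to the 492 regions and not to weaker ones.

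Glutathione transferases and other detoxification genes had 9 of 173 (5.20%), with the cytochrome P450 gene cyp-29A4 highest at 56.0 and a region shared by ugt-9 and ugt-11 at 38.1. Nuclear hormone receptors had 7 of 247 (2.83%, interval 1.15 to 5.75%), close to the share of all genes. They included nhr-68 (75.7) and nhr-80, a receptor involved in fatty acid desaturation, which held summits at -567 bp (57.4) and 11 bp (48.8). Homeobox genes had 2 of 65. Of lists for other tissues, intestine had 2 of 50, germline 3 of 109, and neurons (59) and body muscle (21) had none. Chemoreceptors, a family that is mainly expressed in sensory neurons, had 13 of 1260 (1.03%, interval 0.550 to 1.76%), at signals from 26.3 to 34.9. The interval of the share lay above 3.61% in 8 lists, namely both ribosomal subunits, the mitochondrial ribosome, translation factors, chaperones, splicing factors, collagens and antimicrobial peptides. It lay below it for chemoreceptors and included it for the other 21. These intervals are a description and not a test, and they were not adjusted for the number of lists. They also count genes that share a region, such as mrpl-1 and mrps-24, as separate. Counted by the nearest 5′ end alone, chaperones had 3 of 55 genes and splicing factors 3 of 51. By the same count collagens had 10 of 144, histones 2 of 76, and hedgehog-related and patched-related genes 1 of 73.

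GATA sites were more frequent at these summits than in the DNA around them, but most of the regions had none. WGATAR lay within 50 bp of the summit in 148 of 492 regions (30.1%, interval 26.1 to 34.3%). In windows of the same size centred 500 bp to each side, the share was 19.7% (194 of 984, interval 17.3 to 22.3%), an odds ratio of 1.75 (2-sided Fisher's exact test, p = 1.13e-05). In the list of replicate 1 alone the odds ratio was 1.32 (p = 0.0526, same exact test) and in that of replicate 2 alone 1.61 (p = 9.27e-05). Across all 17242 autosomal promoters, windows placed at -236 bp had the word in 21.7%.

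Compared with weaker promoter regions, 22.4% of which had the word (1205 of 5387, interval 21.3 to 23.5%), the odds ratio was 1.49 (Fisher's exact test, adjusted p = 0.000341 over 4 contrasts with Benjamini-Hochberg). The same comparison made in the list of replicate 1 alone gave 24.9% against 22.2% (odds ratio 1.16, adjusted p = 0.276 by Fisher's exact test), which is not past the threshold of 0.05. In the list of replicate 2 alone it gave 28.9% against 23.5% (odds ratio 1.32, adjusted p = 0.0156 by Fisher's exact test). With promoters taken as 500 bp upstream to the 5′ end the odds ratio was 1.23 (adjusted p = 0.167 by Fisher's exact test).

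Strong intronic and distal intergenic regions had the site more often, in contrasts that were not adjusted for GC content. The share was 40.7% in strong autosomal intronic regions (159 of 391, interval 35.8 to 45.7%), giving an odds ratio of 0.628 for the promoter regions (Fisher's exact test, adjusted p = 0.00144). With GATAAG in place of WGATAR this odds ratio was 0.988, with adjusted p = 1 by the same exact test. It was 44.8% in strong autosomal distal intergenic regions (154 of 344, interval 39.4 to 50.2%), with an odds ratio of 0.531 (adjusted p = 6.24e-05, same exact test). With a window of 25 bp to each side it was 0.756 (adjusted p = 0.124, same exact test). Strong promoter regions of X had 35.6% (47 of 132, interval 27.5 to 44.4%), and the difference from the autosomal promoter regions was not resolved (odds ratio 0.778, adjusted p = 0.245, same exact test).

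**Figure D3:**
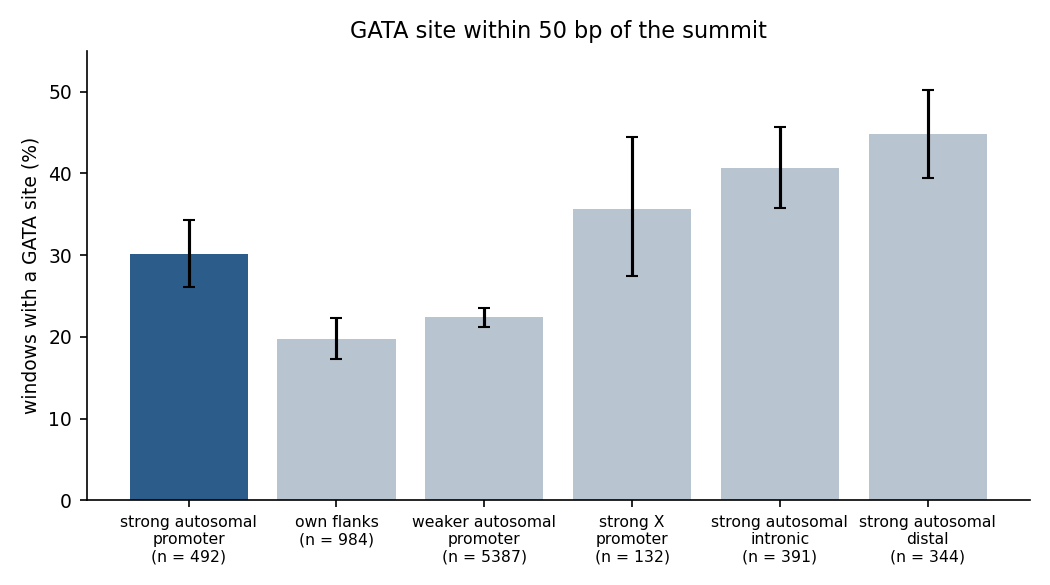
Share of windows (%) with WGATAR within 50 bp of the summit in the 492 strong autosomal promoter regions, their flanks, the weaker promoter regions and 3 other kinds of strong region, with 95% exact binomial intervals. The promoter regions (30.1%) lie above their flanks (19.7%) and the weaker regions (22.4%) and below the intronic (40.7%) and distal (44.8%) regions.

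Sites clustered only moderately around the summit. Counted in steps of 25 bp, they were most frequent from 0 to 24 bp, with 13.01 sites starting per 100 regions, and stood between 6.50 and 8.33 per 100 regions in the outer bins from -250 to -101 bp and between 6.50 and 9.76 in those from 100 to 249 bp. In the distal regions the highest bin, from -50 to -26 bp, held 21.2 per 100 regions. The weaker promoter regions had between 5.96 and 7.46 in all bins from -250 to 249 bp, with no rise at the summit.

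**Figure D4:**
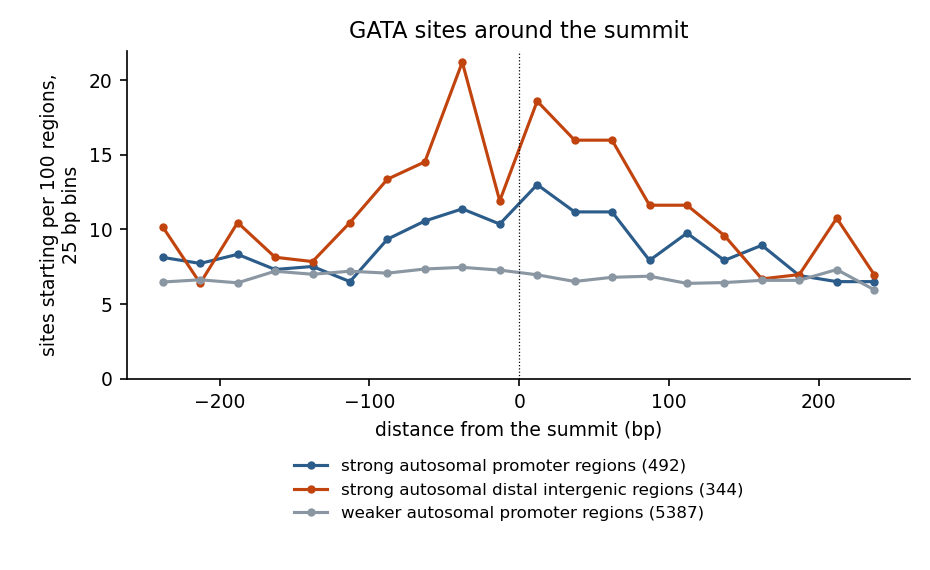
Number of WGATAR sites starting per 100 regions in bins of 25 bp, by distance from the summit in bp, for strong autosomal promoter regions, strong autosomal distal intergenic regions and weaker autosomal promoter regions. The strong promoter regions reach 13.01 in the bin from 0 to 24 bp, the distal regions 21.2 in that from -50 to -26 bp, and the line of the weaker regions is flat.

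Of the 148 regions with a site, 97 had 1, 38 had 2, 7 had 3, 5 had 4 and 1 had 5. The regions with 4 or 5 sites were those of R10D12.1, gana-1, dhp-1, C52E2.3, R04B5.5 and prx-5 with ceh-7. Their replicate values were uneven at C52E2.3, with 28.9 in replicate 1 and 10.6 in replicate 2, and at R04B5.5, with 27.64 and 12.999, and closer at gana-1, with 33.7 and 29.8. The dhp-1 region, at a dihydropyrimidinase gene, had 22.1 and 32.1.

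The word was distributed unevenly within the set. Among the 20 strongest regions 3 had it, at gana-1, F16G10.14 and dmd-7. Taken 100 at a time in order of signal, it was found in 28, 38, 35 and 21 regions, and in 28.3% of the last 92. Regions in the promoters of divergent genes had it in 18.9% (23 of 122, interval 12.3 to 26.9%) and the others in 33.8% (125 of 370, interval 28.98 to 38.9%). It was found in 20 of 42 summits in untranslated regions (47.6%) and in 10 of 53 in coding exons (18.9%). In regions at ribosomal protein genes the share was 12.5% (4 of 32), at translation factors 0 of 7 and at mitochondrial ribosome genes 0 of 7. It was 5 of 8 at detoxification genes, 3 of 4 at antimicrobial peptide genes and 4 of 12 at collagen genes. These subsets were compared as a description only, and their intervals are wide.

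Base composition differed with signal and with the presence of the site. The GC content of the windows was 43.7% ± 8.3 (SD, n = 492 regions), against 38.2% ± 8.2 in the weaker regions, 36.6% ± 9.2 in the flanks and 34.1% ± 8.3 in all promoters at the median position. It was 41.8% ± 8.4 in strong intronic regions, 41.3% ± 7.2 in distal regions and 43.3% ± 8.0 in X promoter regions. Members with a GATA site had 40.1% ± 7.2 and those without 45.3% ± 8.3, and the ribosomal protein regions 50.1% ± 5.2. The 100 strongest members, which include some of the ribosomal protein regions, had 47.4% ± 8.0. WGATAR is itself rich in A and T. With GC content as a covariate in a binomial logistic model, the odds ratio against weaker regions was 1.94 (adjusted p = 2.77e-09).

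All 2080 words of 6 bases, each joined with its reverse complement, were then compared between the strong and the weaker promoter regions. By Fisher's exact test with Benjamini-Hochberg adjustment over all words, 221 (10.6%) were more frequent in the strong regions and 97 (4.66%) were less frequent. Of the former, 152 had 4 or more G or C letters, and of the latter 83 had 4 or more A or T letters. With GC content as a covariate the numbers were 78 and 58, and 73 and 28 words passed in both fits. In the list of each replicate alone, 84 and 122 of the 221 were also called more frequent, and 59 of them in both.

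The 5 words of smallest p among the more frequent ones all contained CG. The word ACGCAG or its complement CTGCGT was in 11.6% of strong and 3.04% of weaker regions (odds ratio 4.17, adjusted p = 2.2e-12 by Fisher's exact test). GCGCGC was in 6.91% and 1.06%, GAGCGC in 9.55% and 2.23%, GCGCAC in 9.15% and 2.08%, and AGCGCG in 8.13% and 1.91%. All 5 were also called with the GC covariate and in each replicate's own list, where the odds ratio of ACGCAG was 2.96 in replicate 1 and 2.59 in replicate 2. The 5 leading words among the less frequent ones were made of A and T. AAAATT was in 15.04% of strong and 32.4% of weaker regions (Fisher's exact test, adjusted p = 6.2e-14), and it alone of these 5 was also called with the GC covariate (odds ratio 0.609, adjusted p = 0.00811 from the logistic model).

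Words with GATA were also among those called. Of 48 such words 11 were more frequent, against 221 of all 2080, and with the GC covariate 11 were more frequent, against 78 of all 2080. GATAAG or its complement CTTATC was in 13.4% of strong and 5.96% of weaker regions (odds ratio 2.45, adjusted p = 9.15e-07 by Fisher's exact test). It had the smallest p of all words with the GC covariate in the binomial logistic model (odds ratio 2.90, adjusted p = 1.13e-07). In the list of replicate 1 alone it was in 10.7% of strong and 5.76% of weaker regions (adjusted p = 0.0068, same exact test), and in that of replicate 2 in 12.4% and 6.74% (adjusted p = 0.000858). AGATAA (odds ratio 1.93) and TGATAA (odds ratio 1.64) were also called, whereas TGATAG was in 4.67% and 4.34% (adjusted p = 0.884 by Fisher's exact test).

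The GC-rich words were less frequent in members with a GATA site than in those without, a difference that was not tested. Most members lack the site, so carriers of an unrelated word would mostly lack it too. Members with the site also had lower GC content, as given above, and these shares were not adjusted for it. At least 1 of the 5 leading words was in 136 of the 492 regions (27.6%), against 7.63% of weaker regions, the comparison on which the words were chosen, and 7.04% of all promoters. They were in 14.9% of members with WGATAR (22 of 148, interval 9.56 to 21.6%) and in 33.1% of members without it (114 of 344, interval 28.2 to 38.4%). Of the 20 strongest regions 12 had one, of the 32 ribosomal protein regions 23 (71.9%). The number was 42 among the first 100 regions, and the share was 17.4% in the last 92. It was 17.1% in strong intronic, 11.9% in strong distal and 18.9% in strong X promoter regions. Neither WGATAR nor any of the 5 words was present in 230 members (46.7%). The 5 words were chosen for their frequency in these same 492 regions, whereas WGATAR was set beforehand. Their shares along the order of signal are thus a description and are not on the same footing.

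**Figure D5:**
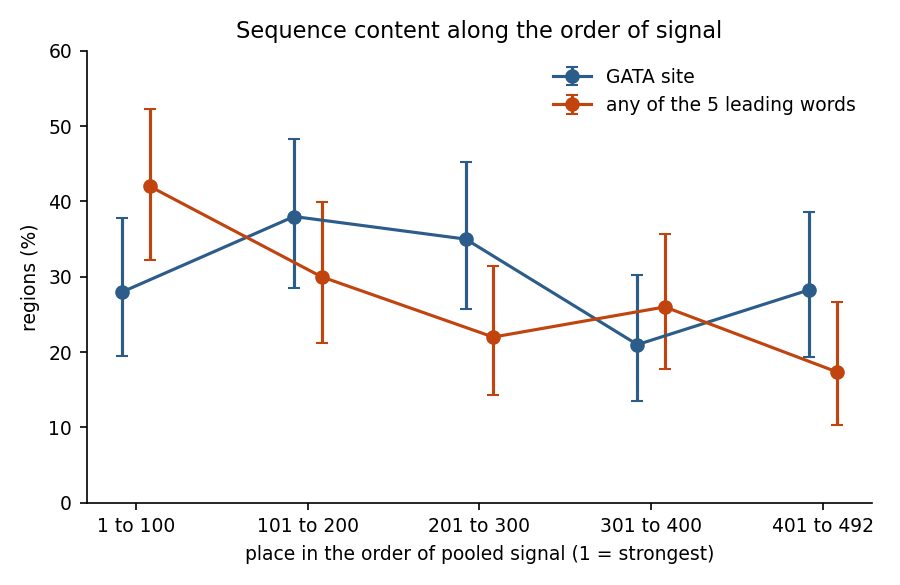
Share of regions (%) with WGATAR (blue) or with any of the 5 leading words (red) in steps of 100 regions by pooled signal, with the last 92 as a group and 95% exact binomial intervals. The 5 words, which were chosen on these same regions, fall from 42% in the first 100 to 17.4% in the last group. WGATAR, which was set beforehand, stays between 21% and 38%.

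Words of 8 bases were added after the data had been seen, to show which longer sequences the GC-rich regions share. Of 32790 words that occurred in any window, 93 (0.284%) were more frequent in the strong regions and 7 (0.0213%) less frequent by Fisher's exact test with Benjamini-Hochberg adjustment. These counts are not corrected for GC content. They also include overlapping words read from the same longer sequence, so they are not counts of separate features. For example, CACATCTA, AGATGTGC and CCTGCACA overlap and share carriers such as icd-2, wwp-1 and tba-2. In the list of each replicate alone, 18 of the 93 were also called in replicate 1 and 17 in replicate 2. Of the 93, 9 contained GATA, and at least 1 of the other 84, some of which are marked in capitals in the first sequences, occurred in 241 of the 492 regions (48.98%) and in 14.3% of weaker regions, on which they were chosen.

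The word of smallest p was GGTCTCGC or its complement GCGAGACC. It was in 23 strong regions (4.67%) and 26 weaker ones (0.483%), an odds ratio of 10.1 (adjusted p = 2.5e-08 by Fisher's exact test). Of all promoters 0.725% had it. It was called in replicate 1 alone (odds ratio 5.34, adjusted p = 0.0167, same exact test) and in replicate 2 alone (odds ratio 4.51, adjusted p = 0.0348). Of the 23 regions 8 were at ribosomal protein genes, among them rpl-4, rpl-41.2, rpl-6, rpl-14, rpl-18 and rpl-21, and others were at htz-1, the G protein gene egl-30, and fib-1, which encodes fibrillarin. Their median signal was 34.1, and 2 of them had a GATA site.

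TGTGCAGG or its complement CCTGCACA was in 13 strong and 6 weaker regions (odds ratio 24.3, adjusted p = 1.6e-06 by Fisher's exact test). It was called in replicate 1 alone (odds ratio 11.03, adjusted p = 0.00759, same exact test) and in replicate 2 alone (odds ratio 15.7, adjusted p = 0.00249). The carriers were icd-2, wwp-1, rfc-4 with eef-1A.1, tba-2, dpm-3 with rps-23, eef-2 with clsp-1, tmem-107 with rps-26, Y17G7B.20, F01G4.6 with pfd-1, the translocon gene sec-61.G with F32D8.13, farl-11 with rpl-33, fib-1 with mut-15, and Y52B11A.12. Their median signal was 51.0, and none had a GATA site.

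AGCGTGTT or its complement AACACGCT was in 9 strong and 6 weaker regions (odds ratio 16.7, adjusted p = 0.000812 by Fisher's exact test). Its carriers were rpl-3, rpl-15, cdc-48.1, rpl-35, tasp-1, tba-2, C17H12.2, Y39B6A.43 and cox-5A, which include 4 of the 5 strongest regions, and the word can be read in capitals in the windows of rpl-3, rpl-15, cdc-48.1, rpl-35 and tasp-1 above. In the lists of the replicates alone it missed the threshold (odds ratio 12.03, adjusted p = 0.11 in replicate 1 by the same exact test, and odds ratio 6.69, adjusted p = 0.155 in replicate 2). The iff-2 and vig-1 windows share GCGTAGCG, which was in 8 strong and 4 weaker regions (odds ratio 22.2, adjusted p = 0.00101 by Fisher's exact test), the others being at hsr-9 with rps-19, rpl-12, rpl-24.1 with rps-10, rps-14, F09G2.2 and tag-340. It was called in the list of replicate 1 alone (odds ratio 24.1, adjusted p = 0.0318, same exact test) and missed the threshold in that of replicate 2 alone (odds ratio 13.9, adjusted p = 0.0596).

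AGATAAGA or its complement TCTTATCT, which contains the GATA site, was in 19 strong and 25 weaker regions (odds ratio 8.61, adjusted p = 3.9e-06 by Fisher's exact test). None of its carriers was at a ribosomal protein gene. They included the antimicrobial peptide genes nlp-31 and nlp-34 and a region nearer to C15A11.7 than to the collagen gene col-62. Others were pmt-2, which encodes a methyltransferase of phosphatidylcholine synthesis, and adh-5 and alh-1, which encode alcohol and aldehyde dehydrogenases. The cadmium-responsive gene cdr-7 was also a carrier. The word was in 2.33% of strong distal regions and 3.79% of strong X promoter regions. In the lists of the replicates alone it missed the threshold (same exact test, adjusted p = 1 in replicate 1 and adjusted p = 0.11 in replicate 2). Another word with GATA, TGATAAGA or its complement TCTTATCA, was in 28 strong and 89 weaker regions (odds ratio 3.59, adjusted p = 0.000416, same exact test). It was called in replicate 1 alone (odds ratio 3.23, adjusted p = 0.0415, same exact test) and in replicate 2 alone (odds ratio 2.96, adjusted p = 0.0427). Its share was 5.69% in the strong promoter regions, 7.16% in strong intronic, 10.5% in strong distal and 10.6% in strong X promoter regions.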

How the data were processed

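ELT-3 ChIP-seq of whole L1 larvae was deposited as region lists in build ce11. Each region carries a signal value, which the authors deposited with no stated scale and which was treated as a score. Per the deposited notes, each replicate list came from 1 replicate and a control, the pooled list from both with a control, and the optimal set was derived from those lists. The longer lists include background. The peak caller, the aligner, the read depth and the IDR threshold were not given in the sources used here.

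Regions were annotated with Ensembl release 115 (WBcel235), and sequence was read from RefSeq for the same assembly. The members and the gene lists were chosen with earlier results of these data known. WGATAR and every word of 6 bases were searched on both strands within 50 bp of the summit and compared by 2-sided Fisher's exact test, treating regions as independent, with Benjamini-Hochberg adjustment over 4 WGATAR contrasts or over all words and a threshold of 0.05. GC content entered a logistic model as an alternative. Neighbouring windows can overlap, and p-values over regions describe these 2 libraries. Intervals are 95% exact (Clopper-Pearson) and cover counting error only. The test of words was checked on weaker promoter windows split at random, with a word planted in some of them. That check does not cover the difference in GC content between strong and weaker regions. Words of 8 bases and results without ribosomal protein regions were chosen after seeing the data.

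Named genes were those of the 20 strongest regions, up to 6 per gene list by signal, the 5 regions with most sites, the 5 most in favour of each replicate, the 3 to each side of the limit, and the 5 leading words each way. Carriers of 8-base words were chosen after their values were seen. Alternatives were a stricter limit, the optimal set, each replicate's list, other promoter, window and match distances, GATAAG, 1 region per promoter, a weaker reference and GC content. Analyses used Python 3.11.15, scipy 1.17.1, numpy 2.4.6 and pandas 2.3.3, and lists in ce10 were not used.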

Additional observations from a re-analysis of the deposited data

How the results depend on the processing

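The number of regions was 278 with the 1000 strongest, 83 with the optimal set and 319 with promoters of 500 bp upstream to the 5′ end, and from 430 to 550 with the rule applied to the list of 1 replicate alone. WGATAR against weaker promoter regions had an odds ratio of 1.29 in the optimal set and 1.23 with the narrower promoters, neither past the threshold, and from 1.16 to 1.32 with 1 replicate left out. The list of replicate 1 alone did not pass. Against the flanks the odds ratio was 1.44 in the optimal set, not past the threshold, and from 1.32 to 1.61 with 1 replicate left out. Against strong X promoter regions it turned to 1.09 in the optimal set, with no call in either direction. Against distal regions it was 0.756 with a window of 25 bp, and against intronic regions 0.988 with GATAAG, neither past the threshold. Words of 6 bases more and less frequent numbered 95 and 12 in the optimal set, 145 and 63 with a window of 25 bp, and 78 and 58 with GC content as a covariate. With 1 replicate left out they numbered from 104 to 150 and from 52 to 70. Words of 8 bases more frequent numbered 19 in each replicate alone, and those less frequent from 0 to 1, and 1 with the 1000 strongest. At an unadjusted p under 0.05, 1620 words of 8 bases were more frequent in the main comparison. In these cases the cause was not tested. Leaving out ribosomal protein regions gave 31.3% with WGATAR and an odds ratio of 1.58 against weaker regions. No paired analysis was possible because the data form 1 group, so replicate numbers pair no samples across groups. Summit windows and their flanks were compared without using their pairing by region. Read depth is unknown and could not be used to weigh either replicate.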

Other observations

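Other properties of the strong autosomal promoter regions were measured without a test. Chromosome I held 120 of the 492 regions (24.4%, 95% exact interval 20.7 to 28.4%), while 16.7% of autosomal protein-coding genes and 18.02% of the weaker promoter regions are on it. Chromosome V held 23.4% (interval 19.7 to 27.4%), against 28.96% of genes and 29.6% of weaker regions.

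A tRNA gene lay within 200 bp of 6 summits (1.22%, interval 0.449 to 2.64%), against 0.408% of weaker promoter regions and 2.03% of strong distal regions. Repetitive or low-complexity sequence, taken as a window with at least 50% of its bases soft-masked in RefSeq, was found at 24 summits (4.88%, interval 3.15 to 7.17%) and at 15.4% of weaker promoter regions (interval 14.4 to 16.4%). The share was 6.39% in strong intronic and 4.36% in strong distal regions.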
